A study of Mus musculus with 33 samples.

Results

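Macrophages are followed here through 9 genes that they are known for: Lyz2, C1qa, C1qb, C1qc, Cd68, Csf1r, Mrc1, Adgre1 and Ctss. They were chosen by name, and every probe set of the array annotated to one of them was taken, which gave 15 of 12422 probe sets and 9 of 8251 named genes. RNA of whole lung and whole liver of C57B/6J mice (so spelled in the study's methods, and C57/BL or C57/Black where a sample label gives the strain) had been hybridized to 33 Affymetrix MGU74Av2 arrays in 11 groups of 3. In 10% oxygen, lungs were taken at fetal day 21 (F21) after the dam had been in 10% oxygen for 12 h. Others were taken at 2 h and at 6 h following birth into 10% oxygen. By the study's methods, dams of these newborns were also put in 10% oxygen before birth, for a time that is not given. In room air (21% oxygen), lungs were taken at F21 and 2 h, 6 h, 12 h and 24 h after birth, and livers at F21, at 2 h and at 6 h. The sources name no other strain and no engineered allele. They do not say which arrays came from 1 litter, so p-values measure only the spread between these arrays.

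Macrophages enter the embryo from yolk sac and fetal liver and stay in each organ as resident cells. In the lung, fetal precursors become alveolar macrophages around birth, as the airspaces fill with air, while the fetal liver is a site of blood formation and holds Kupffer cells, its own macrophages. Csf1r is the receptor whose signal macrophages need to survive. Adgre1 (F4/80) and Mrc1 (CD206, a mannose receptor) are surface proteins of resident macrophages, and Cd68 is a glycoprotein of their lysosomes. C1qa, C1qb and C1qc encode the chains of C1q, which starts the classical complement pathway and is made largely by tissue macrophages. Ctss encodes cathepsin S, a lysosomal protease that prepares MHC class II for peptide. Lyz2 encodes lysozyme M, which breaks bacterial cell walls and is made in mouse by macrophages, neutrophils and alveolar type 2 cells, so it is not particular to macrophages in the lung.

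Signals are MAS5 intensities on a linear scale, with every array scaled to 100. Tests were run on log2 of the signal with a floor of 10, and differences are given on that log2 scale. The tissue labels held: Sftpc, surfactant protein C, was 17961 to 60597 in lung and 35.6 to 125.6 in liver, and Alb, albumin, was 7.4 to 2160 in lung and 44095 to 56445 in liver. The highest lung albumin, 2160, belonged to F21 array 2 of 10% oxygen, whose other 2 arrays had 84.6 and 65.3. The arrays of 10% oxygen differed from the others in their Gapdh 3′ to 5′ ratio, a measure of RNA quality, which was 1.21 to 9.40. In room air it was 0.734 to 1.15 in lung, and in liver it was 1.30 to 1.86. It was over 3 on 6 of the 9 arrays of 10% oxygen, and on no other. Every lung array of 10% oxygen, and every liver array, had a higher ratio than every lung array of room air. Oxygen level in lung therefore cannot be told apart from this measure of RNA quality, nor can organ in room air. Leaving out the arrays over 3 does not part them, as the arrays of 10% oxygen that are kept still lie above 1.15. Within-group correlations of log2 signal were 0.749 to 0.825 in 10% oxygen, 0.896 to 0.950 in room air lung and 0.867 to 0.895 in liver. In whole organs, fewer macrophages and less RNA per macrophage cannot be told apart.

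Stretches of sequence before the starts of some of these genes are given from RefSeq, build GRCm38.p6. They lie outside the RNA that the probe sets read, so they do not show what the probe sets can resolve. Lyz2 lies beside Lyz1, lysozyme P, whose product in mouse is best known from Paneth cells of the gut. The genes are neighbours, and 1 probe set is annotated to both and is called the shared lysozyme probe set below. The 250 bases before their starts were identical at 79.4% of aligned positions, and the 100 bases nearest the start differ at the 8 positions in capitals (Lyz2 is chr10:117282273-117282372 and Lyz1 is chr10:117292869-117292968, both on the minus strand).
Lyz2: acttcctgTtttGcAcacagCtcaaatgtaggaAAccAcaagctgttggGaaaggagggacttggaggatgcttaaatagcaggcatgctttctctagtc
Lyz1: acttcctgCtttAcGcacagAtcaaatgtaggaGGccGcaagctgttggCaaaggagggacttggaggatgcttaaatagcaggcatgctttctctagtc

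The genes of C1q stand side by side as well, in the order C1qb, C1qc, C1qa, yet are read by separate probe sets. Promoter entries were at hand for 6 of the 9 genes (not for C1qa, Csf1r and Adgre1). GAGGAA, the core of the box bound by PU.1, the transcription factor that macrophages depend on, was searched on both strands of the 250 bases before the start. It was present in 5 of the 6 (C1qb, C1qc, Cd68, Ctss and, 3 times, Mrc1, but not Lyz2), and in 23.3% of all 32851 promoters. These matches are descriptions of letters, not measured sites. The stretches below are shown because their genes carry the comparisons that follow, and GAGGAA or its complement TTCCTC is in capitals (C1qb chr4:136886201-136886260, C1qc chr4:136893075-136893134 and Cd68 chr11:69666361-69666420 on the minus strand, Ctss chr3:95526595-95526654 on the plus strand).
C1qb: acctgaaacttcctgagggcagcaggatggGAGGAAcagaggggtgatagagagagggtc
C1qc: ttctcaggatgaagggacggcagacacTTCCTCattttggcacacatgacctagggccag
Cd68: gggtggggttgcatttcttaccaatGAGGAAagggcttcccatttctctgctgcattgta
Ctss: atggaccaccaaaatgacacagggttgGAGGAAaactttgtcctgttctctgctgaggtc

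In lung, 10 of the 15 probe sets were bright enough to be tested: 1 of Lyz2, the shared lysozyme probe set, C1qa, C1qc, Cd68 and Ctss with 1 each, and C1qb and Csf1r with 2 each. A probe set entered when 3 of the 24 lung arrays held it among their brightest 40%, so that 1 bright group could bring it in. The other 5 were dim on most lung arrays. Mrc1 was 3.5 to 45.9 in lung, its 1 probe set. Adgre1 was 4.0 to 51.9 on 1 probe set and 1.4 to 71.5 on the other, the second Cd68 probe set was 1.7 to 28.7 and the second Lyz2 probe set was 1.6 to 42.8. On these 5 the lung levels lay near or under the floor, and no comparison of lung groups was made with them.

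**Figure D1:**
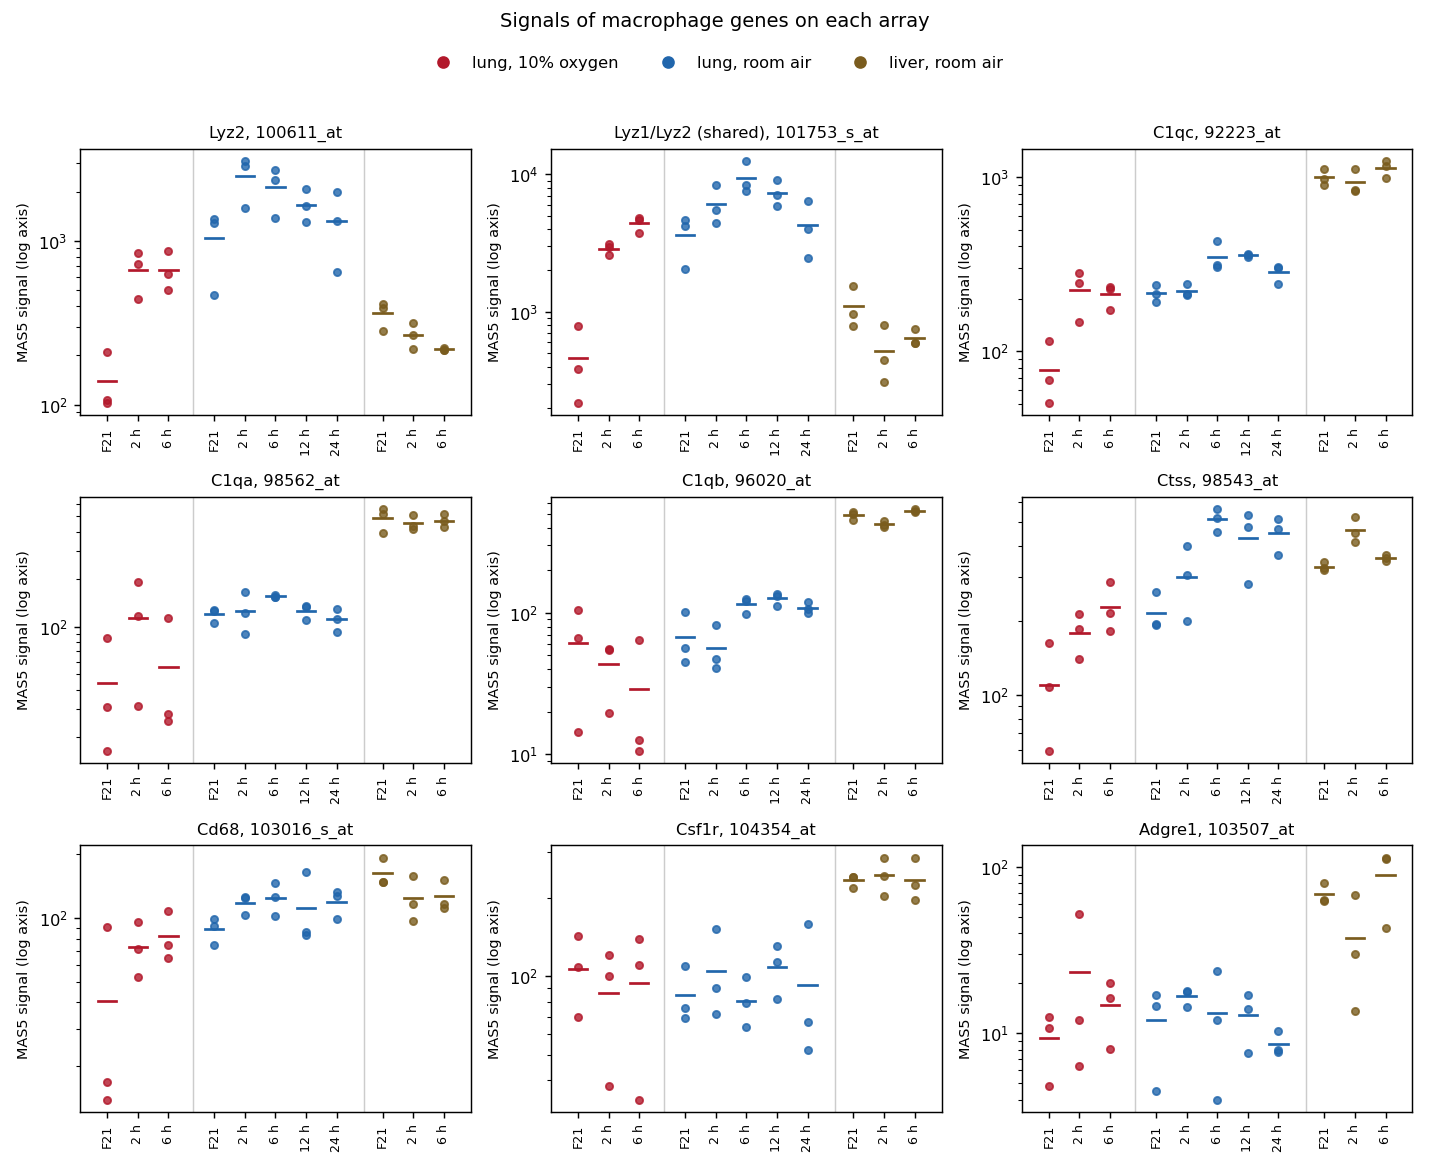
Signal on every array (log axis, MAS5 intensity) of 9 macrophage probe sets in the 11 groups, with lungs of 10% oxygen at the left of each panel, then lungs of room air, then livers; points are arrays and bars are group means. The Lyz2 points of F21 lungs in 10% oxygen lie at 102.6 to 209.4, under those of every other lung group, and the C1qc points of liver lie above all lung points.

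After 12 h of maternal 10% oxygen, the F21 lungs had less lysozyme RNA than F21 lungs of room air, and a higher Gapdh ratio. They had less C1qc RNA too, by a call that was lost in some settings, among them the Gapdh ratio as a covariate. Cd68 and Ctss RNA were lower by calls that many settings ended, and Csf1r RNA did not follow. Of the 10 tested probe sets, 5 were lower and 5 did not pass (limma, adjusted p under 0.05), while 4.62% of all 6931 tested probe sets were lower and 7.13% passed in either direction. The median log2 difference of the 10 was -1.31, and that of all tested probe sets was -0.04. For 6 of the 10, every array of 10% oxygen lay below every array of room air, as did 13.7% of all tested probe sets. Estimates above 0 made up 2 of the 10 and 47.3% of all tested.

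Lyz2 was 106.3, 209.4 and 102.6 in F21 lungs of 10% oxygen, and 1286, 1364 and 467.8 in F21 lungs of room air. The groups did not overlap, and the third room air array was low for its group. The log2 difference was -2.83 (SE 0.41, adjusted p = 2.05e-04). The shared lysozyme probe set was 382.2, 787.4 and 217.9 in 10% oxygen, and 4201, 4665 and 2056 in room air, again without overlap, with a log2 difference of -3.09 (SE 0.38, adjusted p = 3.94e-05). Both kept their call without any 1 of the 6 arrays. Without the albumin-bearing array 2 of 10% oxygen the differences were -3.16 and -3.57, and without the arrays of a Gapdh ratio over 3, they were -3.14 and -3.17. That setting leaves 1 array of 10% oxygen at each age, which is assumed to vary like the other groups, so that its adjusted p here and below rests on their spread.

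The chains of C1q did not behave alike across probe sets. C1qc was 115.0, 68.4 and 50.7 in F21 lungs of 10% oxygen, and 241.4, 191.1 and 212.9 in F21 lungs of room air. These did not overlap, and the log2 difference was -1.54 (SE 0.27, adjusted p = 0.00101). With the Gapdh ratio as a covariate it was -1.12 (adjusted p = 0.0723), and without the arrays of a ratio over 3 it was -0.90 (adjusted p = 0.0568). C1qa was 84.8, 31.2 and 16.3 in 10% oxygen, and 125.5, 106.0 and 127.8 in room air. All 3 arrays of 10% oxygen were lower, but the difference of -1.77 (SE 0.58) did not pass (adjusted p = 0.066). The C1qb probe sets differed by -0.45 and -1.0 (adjusted p = 0.732 and 0.508), the first with 104.0, 14.4 and 66.8 in 10% oxygen and 56.3, 44.9 and 101.0 in room air, overlapping groups.

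The lysosomal genes passed by less. Ctss was 59.3, 108.2 and 162.6 in F21 lungs of 10% oxygen, and 260.8, 193.4 and 191.5 in F21 lungs of room air, with a log2 difference of -1.07 (SE 0.32, adjusted p = 0.0388). Cd68 was 13.9, 90.4 and 16.9 in 10% oxygen, and 91.6, 74.6 and 98.7 in room air. The second array of 10% oxygen, the one with albumin, overlapped the room air arrays, and the difference was -1.66 (SE 0.48, adjusted p = 0.0353). Leaving out any 1 of 5 of the 6 arrays ended the Ctss call (all but array 3 of 10% oxygen; adjusted p up to 0.188) and the Cd68 call (all but array 2 of 10% oxygen; adjusted p up to 0.174). Without array 2 of 10% oxygen the Cd68 difference was -2.52 (adjusted p = 4.34e-04), and without array 1 the Ctss difference was -0.68. Both calls were lost with no filter, with a fit of only the groups compared and with the methods' t-test. The Cd68 call was also lost with the Gapdh ratio as a covariate, with array weights and with a pseudocount of 16.

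Csf1r showed no such fall. Its first probe set was 69.9, 142.6 and 108.2 in F21 lungs of 10% oxygen, and 109.3, 75.8 and 69.0 in F21 lungs of room air, overlapping, with a log2 difference of 0.31 (SE 0.51, adjusted p = 0.778). Its second probe set was 76.7, 41.6 and 49.2 in 10% oxygen, and 49.5, 23.7 and 19.2 in room air, a difference of 0.93 (SE 0.75, adjusted p = 0.497). With these errors, falls as large as those of C1qc were outside 2 SE of either estimate, while smaller falls were not resolved.

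**Figure D2:**
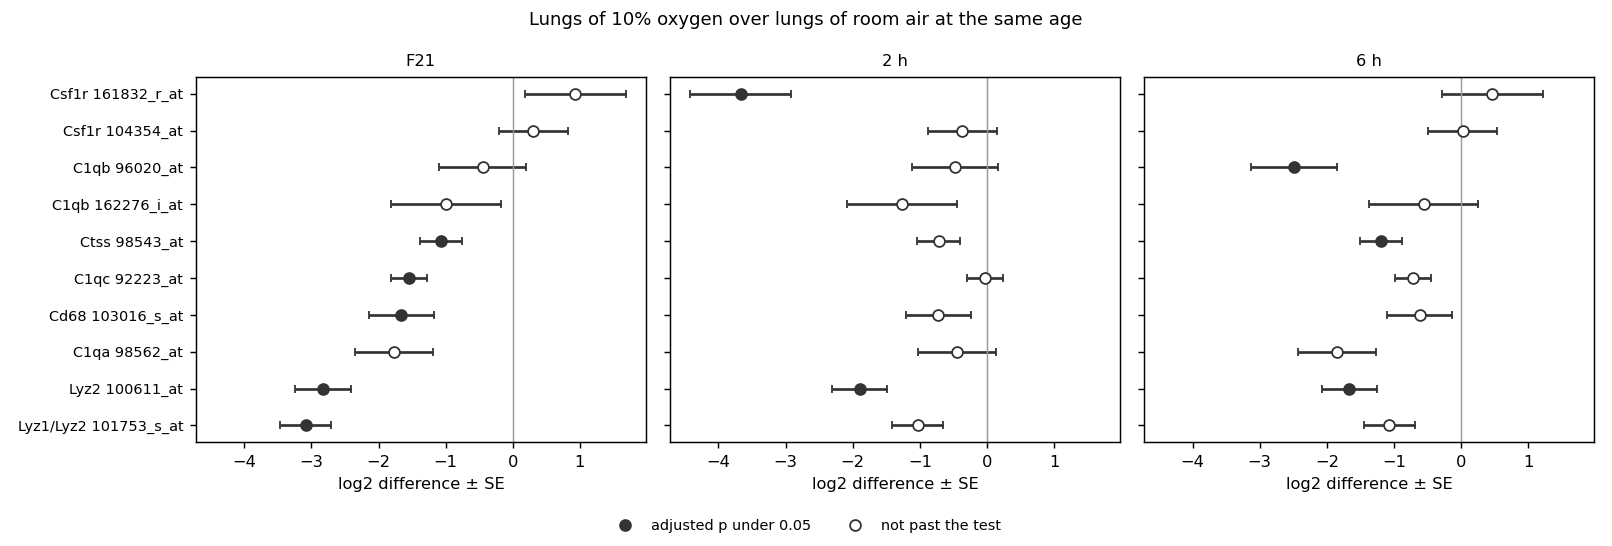
Log2 difference of lungs of 10% oxygen over lungs of room air at F21, 2 h and 6 h for the 10 tested probe sets; points are estimates, bars are SE, and filled points have an adjusted p under 0.05. Of the 10 points, 8 lie below 0 at F21, 10 at 2 h and 8 at 6 h, and the Lyz2 point is filled in each panel.

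Some markers of other cells differed in the same fetal comparison, and their part in the lysozyme difference was not tested. Over all 5323 genes tested there, 241 were lower in 10% oxygen and 137 higher. Of 9 tested genes of alveolar type 2 cells, 2 were lower in 10% oxygen: Scd1, which makes monounsaturated fatty acids, averaged 136.4 in 10% oxygen and 1335.4 in room air (log2 difference -3.71, adjusted p = 2.05e-04), and Chil1, a secreted chitinase-like protein, averaged 45.6 in 10% oxygen and 274.9 in room air (-2.62, adjusted p = 2.66e-04). The summed signal of the alveolar type 2 list was 25318 to 46511 in 10% oxygen and 54947 to 68093 in room air. Of 10 neutrophil genes only Lcn2, lipocalin 2, was lower (-1.50, adjusted p = 0.0347), and the neutrophil sums were 1011.1 to 1157.9 in 10% oxygen and 1014.4 to 1516.9 in room air. Lymphocyte genes had 0 of 7 past the adjusted threshold, with all 7 below 0, a median of -1.29 and sums of 267.7 to 477.4 in 10% oxygen and 480.5 to 587.4 in room air. Of 10 erythroid genes, 2 were lower: Alas2, the first enzyme of erythroid haem synthesis, and Tfrc, the transferrin receptor (-1.47 and -0.95). Leaving both lysozyme genes aside, the summed signal of the other 12 macrophage probe sets was 588.4 to 618.7 in 10% oxygen and 828.2 to 1072.9 in room air.

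After birth into 10% oxygen, lysozyme and C1qc rose over the F21 lungs of 10% oxygen. At 2 h, 3 of the 10 probe sets were higher, 0 lower and 7 did not pass, against 1.37% of all tested probe sets higher and 2.65% in either direction. At 6 h, 4 were higher, 0 lower and 6 did not pass, against 2.99% higher and 6.31% in either direction. The median log2 change of the 10 was 1.07 at 2 h and 0.72 at 6 h, where those of all tested probe sets were -0.02 at both ages. These changes and the fetal difference share the 3 F21 arrays of 10% oxygen, so a low level on those arrays enters both.

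Lyz2 was 837.5, 722.2 and 444.5 at 2 h and 501.1, 866.4 and 629.1 at 6 h in 10% oxygen, where F21 lungs of 10% oxygen had 102.6 to 209.4. Every newborn array was above every F21 array, and the 2 newborn ages overlapped. The log2 change was 2.29 at 2 h (SE 0.41, adjusted p = 0.00317) and 2.30 at 6 h (SE 0.41, adjusted p = 0.00146). In the same lungs the shared lysozyme probe set was 2971, 2597 and 3088 at 2 h and 4682, 4782 and 3748 at 6 h, where F21 had 217.9 to 787.4. Its 6 h arrays lay above its 2 h arrays, and the changes were 2.83 (adjusted p = 5.37e-04) and 3.44 (adjusted p = 1.08e-05).

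C1qc was 281.2, 245.8 and 148.2 at 2 h and 235.0, 173.4 and 227.8 at 6 h, above the 50.7 to 115.0 of F21 lungs of 10% oxygen on every array. The changes were 1.56 (SE 0.27, adjusted p = 0.00223) and 1.51 (SE 0.27, adjusted p = 0.00137). Ctss was 182.2, 284.9 and 215.4 at 6 h, where F21 had 59.3 to 162.6, a change of 1.14 (SE 0.32, adjusted p = 0.0314). The Ctss call was lost without F21 array 1 or 2 or without 6 h array 2 or 3 (adjusted p up to 0.16, change down to 0.75). Cd68, at 52.9 to 95.4 at 2 h and 64.9 to 107.4 at 6 h, changed by 1.36 and 1.54 (adjusted p = 0.138 and 0.059), and overlapped the F21 arrays through F21 array 2.

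C1qb and Csf1r did not share in the rise. The first C1qb probe set was 54.4, 55.7 and 19.6 at 2 h and 12.7, 10.5 and 64.2 at 6 h in 10% oxygen, with log2 changes of -0.25 and -1.18 that did not pass (adjusted p = 0.886 and 0.294). The first Csf1r probe set, at 100.2, 38.0 and 120.2 at 2 h and 110.8, 139.0 and 33.7 at 6 h, changed by -0.41 and -0.35 and overlapped its F21 values. The second Csf1r probe set was 10.2, 5.0 and 5.8 at 2 h, under the 41.6 to 76.7 of F21 on every array, a change of -2.42 (SE 0.75, adjusted p = 0.0868), and overlapped F21 again at 6 h (-0.32). C1qa ranged widely between arrays, with 116.3, 31.7 and 192.6 at 2 h, and changed by 1.35 (SE 0.58, adjusted p = 0.233).

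The rise depended on the baseline. Without the arrays of a Gapdh ratio over 3, which sets 1 array against 1 at each age, the changes at 2 h and 6 h were 3.01 and 3.61 for the shared lysozyme probe set, 2.06 and 2.24 for Lyz2 (adjusted p = 0.166 and 0.0931) and 0.37 and 1.03 for C1qc (adjusted p = 0.652 and 0.0701). Set against F21 lungs of room air, lungs born into 10% oxygen gave no call for any of the 10 probe sets at 2 h or 6 h. On that baseline Lyz2 differed by -0.54 at 2 h and -0.53 at 6 h, the shared lysozyme probe set by -0.25 and 0.35, and C1qc by 0.02 and -0.03. Other genes rose in the same lungs over their own F21 level. Of the alveolar type 2 list Chil1 rose by 2.65 at 2 h and 2.57 at 6 h and Scd1 by 3.21 and 2.28, and of the neutrophil list S100a8, a calcium-binding protein of the neutrophil cytosol, rose by 1.18 and 1.81 and Lcn2 by 1.85 and 2.25. Neutrophil sums were 1308.7 to 1909.3 at 2 h and 1875.8 to 2200.3 at 6 h. The part of these cells in the lysozyme values was not tested.

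**Figure D3:**
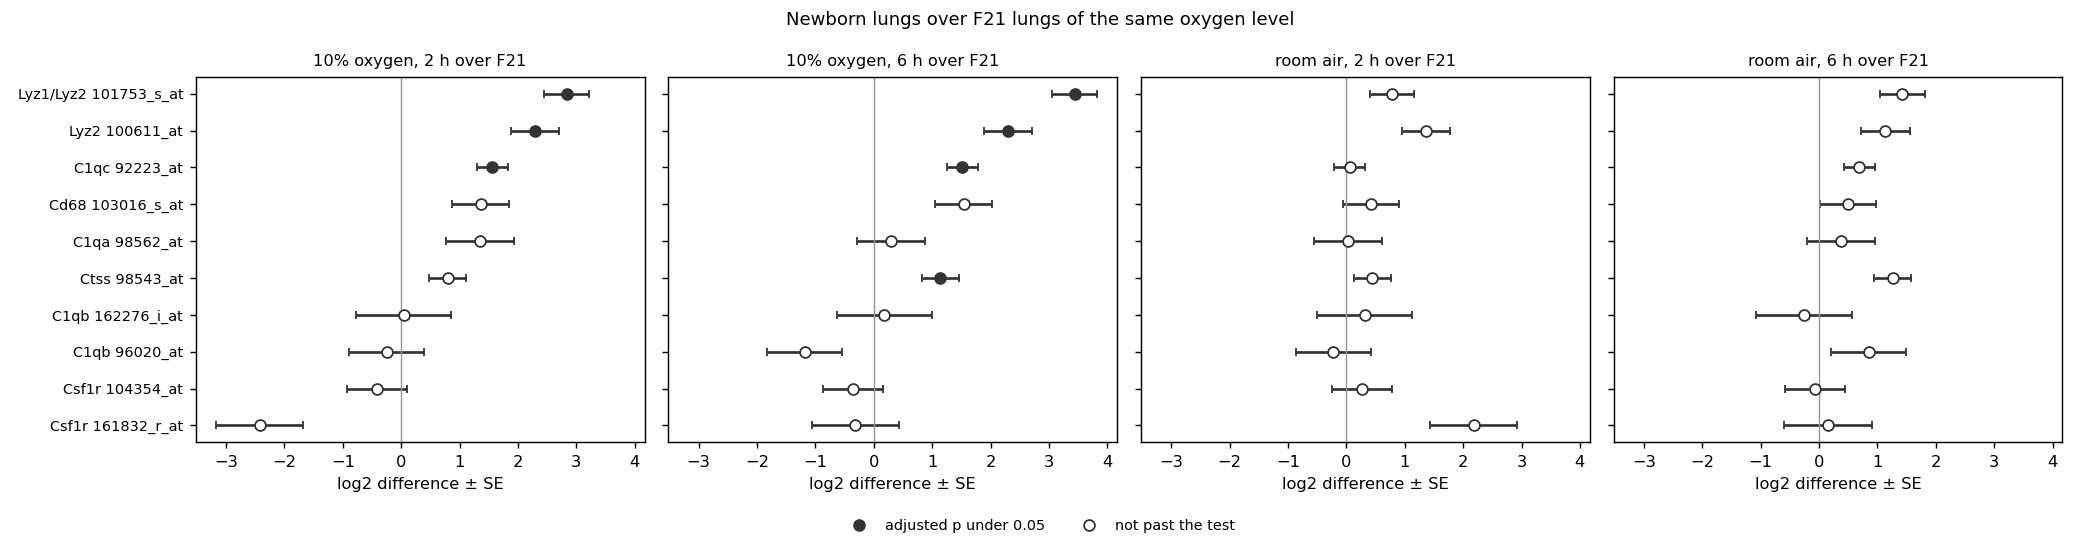
Log2 difference of newborn over F21 lungs of the same oxygen level, in 10% oxygen at 2 h and 6 h and in room air at 2 h and 6 h, for the 10 tested probe sets on 1 shared axis; points are estimates, bars are SE, and filled points have an adjusted p under 0.05. The filled points, 3 at 2 h and 4 at 6 h, all belong to 10% oxygen, where the baseline was the low F21 group.

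In room air, 0 of the 10 probe sets passed at any age after birth. The background was 4.24% of all tested probe sets at 2 h, 1.02% at 6 h, 1.34% at 12 h and 0.577% at 24 h. At an unadjusted p under 0.05, 2, 4, 3 and 1 of the 10 were higher at these ages, where 7.75%, 5.61%, 6.18% and 5.67% of all tested probe sets were higher. The median change of the 10 was 0.37, 0.59, 0.55 and 0.28 in the order of age, and that of all tested probe sets lay between -0.04 and 0.02.

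The largest estimate in room air was that of the second Csf1r probe set at 2 h. It was 117.1, 119.4 and 150.3 at 2 h, above the 19.2 to 49.5 of F21 on every array, a change of 2.18 (SE 0.75, adjusted p = 0.102), and overlapped F21 at each later age. The first Csf1r probe set changed by 0.26 at 2 h (SE 0.51). Lysozyme and Ctss came next. Lyz2 was 1286, 1364 and 467.8 at F21, 2850, 3087 and 1579 at 2 h, 2340, 2716 and 1374 at 6 h, 2064, 1296 and 1635 at 12 h, and 1977, 1318 and 646.2 at 24 h. Every 2 h array was above every F21 array, and by 12 h the ages overlapped again. The log2 change was 1.36 at 2 h (SE 0.41, adjusted p = 0.0621) and 0.35 at 24 h (SE 0.41, adjusted p = 0.849). On the shared lysozyme probe set the signal was highest at 6 h, with 8302, 12547 and 7514, against 4201, 4665 and 2056 at F21, a change of 1.43 (SE 0.38, adjusted p = 0.0703).

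Ctss was 519.4, 563.6 and 456.6 at 6 h in room air, against 260.8, 193.4 and 191.5 at F21. The groups did not overlap, the change was 1.26 (SE 0.32, adjusted p = 0.0515), and the 24 h arrays at 369.4 to 515.7 were still above F21. C1qc was 349.6, 363.8 and 356.6 at 12 h, above the 191.1 to 241.4 of F21, with a change of 0.74 (SE 0.27, adjusted p = 0.219). C1qa changed by 0.03 to 0.38 between 2 h and 12 h and by -0.11 at 24 h, and the first Csf1r probe set by -0.07 to 0.36 over all 4 ages, with SE of 0.58 and 0.51.

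These calls in room air were sensitive to the setting. With array weights, 2, 3, 2 and 1 of the 10 passed at 2 h, 6 h, 12 h and 24 h, and without any 1 array 0 passed. Of the marker lists in room air, S100a8 rose by 1.65 at 2 h and 3.04 at 6 h and S100a9, its partner, by 1.75 and 2.95. Cd14, the co-receptor for bacterial lipopolysaccharide on monocytes and macrophages, rose by 1.45 at 6 h (adjusted p = 0.00442), and was 1 of 12 tested phagocytic and surface receptor genes to pass there. Over all 5323 genes tested at 6 h in room air, 45 were higher and 13 lower.

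The changes at birth were also compared between oxygen levels as an interaction. At 2 h, 1 of the 10 probe sets passed, against 0.476% of all tested probe sets, and at 6 h 0 passed, against 0.0144%. The change at 2 h was larger in 10% oxygen than in room air by 2.06 for the shared lysozyme probe set (SE 0.54, adjusted p = 0.0985), 1.51 for C1qc (SE 0.38, adjusted p = 0.0827) and 0.93 for Lyz2 (SE 0.58, adjusted p = 0.51), none past the threshold. The 1 call was the second Csf1r probe set, at -4.60 (SE 1.06, adjusted p = 0.0448). It was 10.2, 5.0 and 5.8 at 2 h in 10% oxygen, around the floor, and 117.1, 119.4 and 150.3 at 2 h in room air. The first Csf1r probe set gave -0.67 (SE 0.73, adjusted p = 0.74) for the same contrast, the 2 probe sets of this gene correlated at -0.086 over the 24 lung arrays, and the call was lost without any 1 of the 12 arrays (adjusted p 0.0626 to 0.123). The suffix r of the second marks a probe set for which the design rules of the array were relaxed.

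At the same age, newborn lungs of 10% oxygen had less Lyz2 RNA than those of room air, and a higher Gapdh ratio. At 2 h, 2 of the 10 probe sets were lower and 0 higher, against 9.08% of all tested probe sets lower and 16.8% in either direction, and all 10 estimates were below 0, where 47.0% of all tested probe sets were above 0. At 6 h, 3 were lower and 0 higher, against 3.55% lower and 5.80% in either direction, and 2 of the 10 estimates were above 0, where 47.2% of all were. The median difference of the 10 was -0.72 at 2 h and -0.89 at 6 h, and that of all tested probe sets -0.06 and -0.04.

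Lyz2 at 2 h was 837.5, 722.2 and 444.5 in 10% oxygen, against 2850, 3087 and 1579 in room air, a log2 difference of -1.90 (SE 0.41, adjusted p = 0.00293). At 6 h it was 501.1, 866.4 and 629.1 in 10% oxygen, against 2340, 2716 and 1374 in room air, a difference of -1.67 (SE 0.41, adjusted p = 0.0192). The groups did not overlap at either age, but the 6 h call was lost without room air array 1 or 2 or without 10% oxygen array 1 (adjusted p up to 0.0819). Its partner, the shared lysozyme probe set, lay lower on every array of 10% oxygen at both ages, by -1.03 and -1.07, and did not pass (adjusted p = 0.0649 and 0.0951). C1qc differed by -0.03 at 2 h (SE 0.27) and -0.71 at 6 h (adjusted p = 0.114). Without the arrays of a Gapdh ratio over 3, the Lyz2 difference was -2.44 at 2 h (adjusted p = 0.0157) and -2.04 at 6 h (adjusted p = 0.0553), with 1 array of 10% oxygen at each age and the spread taken from the other groups.

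The other call at 2 h was the second Csf1r probe set, whose estimate was the largest of the 10. It was 10.2, 5.0 and 5.8 in 10% oxygen, against 117.1, 119.4 and 150.3 in room air, without overlap, a difference of -3.67 (SE 0.75, adjusted p = 0.00188), and it kept the call without any 1 of the 6 arrays. Of its 3 arrays of 10% oxygen, 2 lay under the floor, so the size of the difference depends on the floor, at -4.26 with a floor of 1. The first Csf1r probe set differed by -0.37 (SE 0.51, adjusted p = 0.674), with overlapping groups, and at 6 h neither passed (0.02 and 0.47).

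Ctss and C1qb passed at 6 h too. Ctss was 182.2, 284.9 and 215.4 in 10% oxygen, against 519.4, 563.6 and 456.6 in room air, without overlap, a difference of -1.19 (SE 0.32, adjusted p = 0.0287). The first C1qb probe set was 12.7, 10.5 and 64.2 in 10% oxygen, against 125.6, 121.9 and 98.2 in room air, a difference of -2.49 (SE 0.64, adjusted p = 0.0238), while its second probe set gave -0.56 with overlapping groups. The call was lost for Ctss without any 1 array but array 2 of 10% oxygen, and for C1qb without any 1 array but array 3 of 10% oxygen, with adjusted p up to 0.0897 and 0.0907. At 6 h Cd14 was lower in 10% oxygen too (237.5 against 491.8 on average, -1.04, adjusted p = 0.0171), and of the neutrophil list S100a8 (-1.27) and Elane, neutrophil elastase (-1.73), were lower. Neutrophil sums at 6 h were 1875.8 to 2200.3 in 10% oxygen and 2692.4 to 3527.2 in room air, and their part in these differences was not tested.

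Lysozyme was higher in fetal lung than in fetal liver, and C1q, Adgre1, Cd68, Ctss and the first Csf1r probe set were lower. Some settings ended the calls of lysozyme, Cd68 and Ctss. In F21 lung of room air, 2 of 11 probe sets tested in the fit of both organs were higher than in F21 liver, 7 were lower and 2 did not pass, against 19.8% of 6858 tested probe sets higher, 15.9% lower and 35.7% in either direction. The median log2 difference was -0.88 for the 11 and 0.15 for all tested. Lyz2 was 1286, 1364 and 467.8 in F21 lung, against 391.2, 409.9 and 280.7 in F21 liver, a difference of 1.40 (SE 0.34, adjusted p = 0.00316). The shared lysozyme probe set was 4201, 4665 and 2056 in lung, against 1529, 959.8 and 794.2 in liver, a difference of 1.70 (SE 0.35, adjusted p = 7.16e-04). Every lung array was above every liver array for both. Both calls were lost with the methods' t-test in each form tried, and with the Gapdh ratio as a covariate.

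All 3 chains of C1q were lower in lung. C1qc was 241.4, 191.1 and 212.9 in F21 lung, against 979.1, 1113 and 900.0 in F21 liver, a difference of -2.21 (SE 0.17, adjusted p = 3.18e-09). C1qa was 125.5, 106.0 and 127.8 in lung, against 555.4, 389.4 and 517.0 in liver, a difference of -2.01 (SE 0.21, adjusted p = 2.50e-07). The first C1qb probe set was 56.3, 44.9 and 101.0 in lung, against 497.7, 516.9 and 457.1 in liver, a difference of -2.95 (SE 0.27, adjusted p = 4.71e-08), and the second C1qb probe set, whose suffix i marks an incomplete set of probes, did not follow (0.15, SE 0.36).

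The receptors were lower in lung on some probe sets. Csf1r on its first probe set was 109.3, 75.8 and 69.0 in F21 lung, against 239.3, 217.9 and 240.9 in F21 liver (-1.49, SE 0.28, adjusted p = 3.64e-04). The second Csf1r probe set did not pass, with 49.5, 23.7 and 19.2 in lung and 32.2, 49.6 and 3.2 in liver, overlapping groups. Adgre1 was 17.0, 4.5 and 14.7 in lung, around the floor, against 62.5, 80.5 and 63.5 in liver (-2.33, SE 0.60, adjusted p = 0.00476). Adgre1 entered this fit only through liver arrays, where it was brighter, so its place among the lower calls gives no support of its own. Mrc1, not tested, was 20.9, 4.2 and 28.5 in lung, against 39.1, 47.8 and 51.9 in liver. Cd68 (-0.88, SE 0.25, adjusted p = 0.0103) and Ctss (-0.63, SE 0.21, adjusted p = 0.0220) were lower by less. Cd68 was not called without liver array 3 (adjusted p = 0.0511), and Ctss not without liver array 1 or 2 or lung array 2 or 3 (adjusted p up to 0.0773). With the Gapdh ratio as a covariate 5 of the 9 calls were kept. Those lost were Lyz2 (1.45, adjusted p = 0.194), the shared lysozyme probe set (0.87, adjusted p = 0.458), Cd68 (-0.67, adjusted p = 0.454) and Ctss (-0.59, adjusted p = 0.412).

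**Figure D4:**
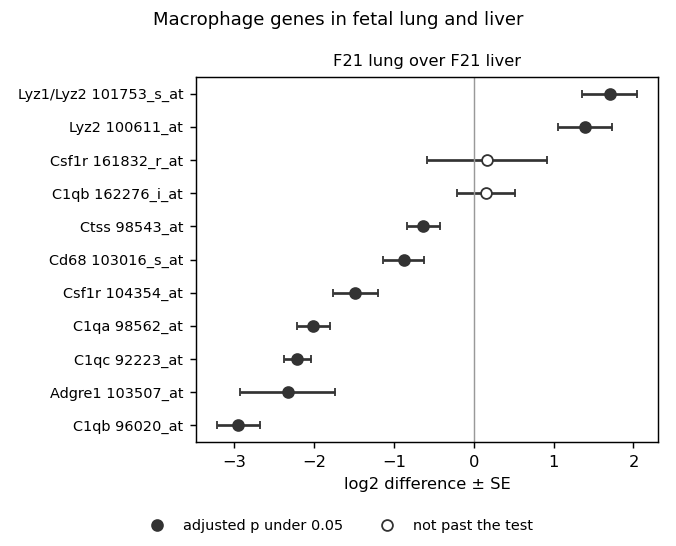
Log2 difference of F21 lung of room air over F21 liver for the 11 probe sets tested in the fit of both organs; points are estimates, bars are SE, and filled points have an adjusted p under 0.05. Both lysozyme probe sets lie above 0, at 1.40 and 1.70, and the filled points of C1q, Csf1r, Adgre1, Cd68 and Ctss lie below 0.

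Of the wider macrophage lists, those of adaptors, of complement and of chemokines and cytokines had most of their tested genes lower in F21 lung than in F21 liver, and the others were mixed or largely did not pass. Of 16 tested adaptors and transcription factors of myeloid cells, 10 were lower and 2 higher, among the lower Coro1a, an actin-binding protein of leukocytes (-1.46), and Tyrobp, the adaptor DAP12 (-1.16). Of 13 tested complement genes, 10 were lower and 1 higher. Of 17 tested hepatocyte genes, 17 were lower in lung, with sums of 1532.6 to 2111.7 in lung and 168871 to 181983 in liver. The part of hepatocytes in the complement counts was not tested. Of 16 phagocytic and surface receptors, 5 were lower, 2 higher and 9 did not pass. The one with the smallest p was Clec4f, a lectin of Kupffer cells, which averaged 18.2 in lung, near the floor, and 326.8 in liver (-4.27). Of 23 lysosomal genes, 6 were lower, 5 higher and 12 did not pass, with Ctsl and Ctsb, the cathepsins L and B, lower (-2.19 and -1.59) and Ctsh, cathepsin H, and Npc2, a carrier of cholesterol, higher (2.39 and 2.98). Of 7 chemokines and cytokines, 4 were lower and 2 higher. Of 6 genes of the CSF axis 2 were lower and 1 higher, of 6 of the phagocyte oxidase 2 were lower and 0 higher, and of 6 of MHC class II 0 passed. Over all 5294 genes tested, 860 were lower and 1070 higher. Of 15 tested neutrophil genes, 12 were lower in lung, with sums of 1014.4 to 1516.9 in lung and 21939 to 23826 in liver. Of 9 tested alveolar type 2 genes, 8 were higher and 1 lower in lung, with sums of 54947 to 68093 in lung and 2706 to 2895 in liver. The part of neutrophils or alveolar type 2 cells in the lysozyme difference between the organs was not tested.

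In liver, no macrophage probe set passed after birth. At 2 h and 6 h, 0 of 10 tested probe sets passed, against 0.913% and 1.84% of 5693 tested, and at an unadjusted p under 0.05 1 was higher and 1 lower at 2 h, where 6.31% and 5.76% of all tested were, and 0 were higher and 2 lower at 6 h, where 6.34% and 7.08% of all tested were. C1qc was 979.1, 1113 and 900.0 at F21, 1114, 836.3 and 845.0 at 2 h, and 1154, 989.3 and 1242 at 6 h. The log2 changes of C1qc were -0.11 and 0.18 (SE 0.16), and those of the first Csf1r probe set 0.05 and 0.00 (SE 0.20). Lyz2 was 391.2, 409.9 and 280.7 at F21, 315.0, 218.2 and 266.1 at 2 h, and 215.9, 216.1 and 221.4 at 6 h. Its 6 h arrays were all below the F21 arrays, by -0.71 (SE 0.20, adjusted p = 0.11).

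The shared lysozyme probe set separated the organs in its change at birth. In room air lung it changed by 0.78 at 2 h and 1.43 at 6 h, and in liver by -1.14 and -0.71. The lung change exceeded the liver change by 1.92 at 2 h (SE 0.49, adjusted p = 0.0431) and 2.14 at 6 h (SE 0.49, adjusted p = 0.0446). It was the 1 of 11 probe sets past the threshold at each age, against 2.54% and 0.875% of all tested probe sets. The same differences were 1.79 and 1.84 for Lyz2 (adjusted p = 0.0519 and 0.0811) and 1.14 for Ctss at 6 h (adjusted p = 0.0766). Of the 12 arrays each comparison used, leaving out any 1 of 7 ended the 2 h call (liver array 2 or 3 at 2 h, liver array 1 or 2 at F21, lung array 1 or 2 at 2 h, lung array 3 at F21; adjusted p up to 0.114). Leaving out any 1 of 10 ended the 6 h call (all but lung array 3 at 6 h and lung array 2 at F21; adjusted p up to 0.114).

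In the fetal oxygen comparison, few genes of the wider macrophage lists passed, and the share was small over all genes as well. Over all 5323 genes tested, 241 were lower and 137 higher. Of 12 tested phagocytic and surface receptors 0 passed, of 22 lysosomal genes 1 was lower (Ctsd, cathepsin D, -0.73), and of 9 complement genes 1 was lower (Hc, complement C5, -1.63). Of 13 adaptors and transcription factors 1 was higher, Cebpb, a factor of myeloid and other cells, at 1205.3 in 10% oxygen and 425.7 in room air (1.47, adjusted p = 0.00399). Of 7 MHC class II genes 0 passed, with 6 below 0 and a median of -0.53, where the median over all 5323 tested genes was -0.04. Of 4 phagocyte oxidase genes 1 was lower, and of 5 genes of the CSF axis 1 was higher. Among 6 chemokines and cytokines 0 passed, with 1 above 0 and a median of -0.68. Tgfb1, a cytokine that alveolar macrophages need, averaged 150.6 in 10% oxygen and 16.5 in room air at F21 (3.22), and differed by 3.13 and 3.22 at 2 h and 6 h. Its room air level at F21 was near the floor of 10, which limits what the size of that difference means. Newborn lungs of 10% oxygen at 6 h had more Tyrobp than their F21 lungs (1.12, adjusted p = 0.0228), and more Hc (2.19) and C5ar1, the receptor for C5a (0.97).

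Over the 24 lung arrays, some of the genes varied together more closely than others. These are descriptions across arrays that share groups and scaling. Pearson's r of log2 signals was 0.93 between Lyz2 and the shared lysozyme probe set, 0.876 between the shared probe set and C1qc, 0.811 between Lyz2 and C1qc, 0.796 between Lyz2 and Cd68 and 0.773 between Lyz2 and Ctss. C1qa lay between, at 0.576 with Lyz2 and 0.64 with C1qc, as did the first C1qb probe set, at 0.321 and 0.487. The first Csf1r probe set had r of 0.016 with Lyz2 and -0.154 with C1qc, but 0.655 with the second C1qb probe set. Over the 9 liver arrays r between Lyz2 and C1qc was 0.056.

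The genes most like each member over the lung arrays were taken as the 3 with the highest r. For Lyz2 they were B2m, the light chain of MHC class I (0.893), Ifitm3, an interferon-induced membrane protein (0.891), and Chil1 (0.876). For the shared lysozyme probe set they were Hc (0.910), Scgb1a1, the secretoglobin of club cells (0.908), and Chil1 (0.878). For C1qc they were Hp, haptoglobin (0.869), Ramp1 (0.857) and Atraid (0.848), and for Ctss B2m (0.855), Anxa3 (0.849) and S100a13 (0.831). C1qa was most like Ndufv1 (0.876) and Cd68 most like Golga3 (0.883). For the Csf1r, Adgre1 and Mrc1 probe sets the highest r was 0.723, and no gene stood close.

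**Figure D5:**
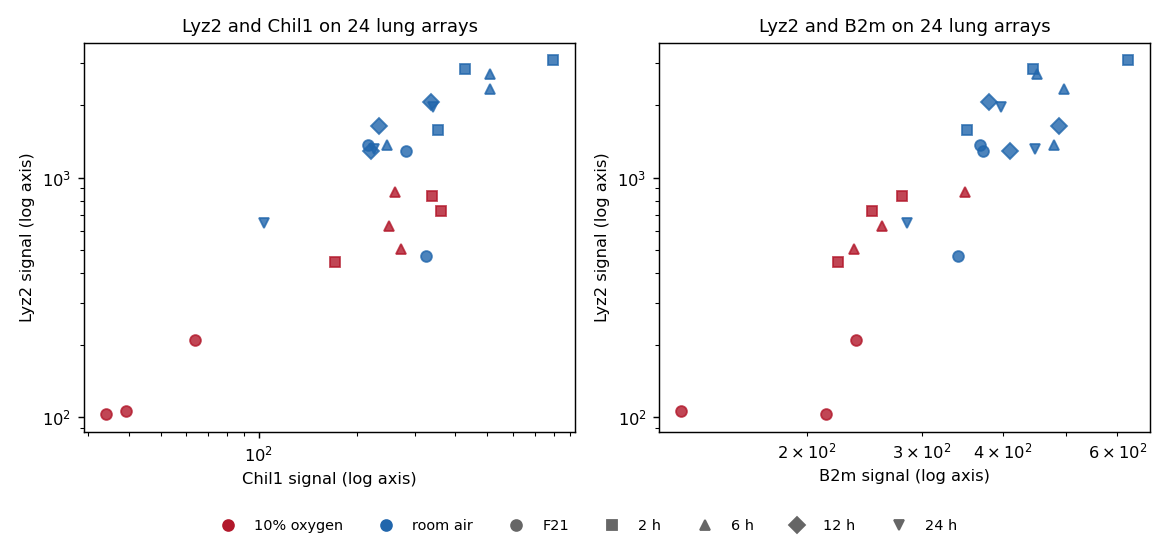
Lyz2 signal against Chil1 signal (left) and B2m signal (right) on the 24 lung arrays, both axes logarithmic; color marks 10% oxygen and room air, and shape marks age. The 3 F21 arrays of 10% oxygen lie lowest in Lyz2, at 102.6 to 209.4, and Pearson's r of log2 signals is 0.876 and 0.893.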

How the data were processed

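The 33 arrays carry MAS5 signal intensities on a linear scale, which the authors computed in Affymetrix Microarray Suite 5.0 with a target intensity of 100 per chip and deposited as 1 table. Detection calls were not used here. After removal of 66 control probe sets, a floor of 10 was put under the signals and they were taken to log2. Probe sets were named from the platform annotation: 10833 carry 1 gene symbol, 396 several and 1193 none. A probe set was tested when among the top 40% of signals on at least 3 arrays of a fit, which left 6931 for lung, 5693 for liver and 6858 for room air lung and liver together.

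Groups were compared with limma 3.58.1 in R 4.3.3 (lmFit, contrasts, eBayes with trend) and Benjamini-Hochberg adjustment over all probe sets tested, at an adjusted p under 0.05. Every age after birth was set against F21 of its organ and oxygen level, oxygen levels and organs against each other at 1 age, and changes against each other as an interaction, 16 comparisons in all. The macrophage genes, the other gene lists and the tests were chosen with earlier results of these data known. All probe sets of the 9 genes are accounted for. Of the other lists, up to 4 genes with the smallest p in a comparison are named, and marker genes where their level stands beside a result. The fit was tested on simulated data. No 2 arrays held identical values.

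Sample numbers were not used as pairs: same-numbered lung arrays correlated in their deviations from the group means at a median r of 0.002 over 84 pairs (-0.152 to 0.275), and other arrays at 0.003. The alternatives tried were quantile normalization, a pseudocount of 16, a floor of 1, a filter on the top 30% by median signal or none, array weights, a covariate for the Gapdh ratio (3′ over 5′), sample number as a block, a fit of only the groups compared, F21 lungs of room air as baseline, the methods' t-test, and leaving out each array. Leaving out the arrays of a Gapdh ratio over 3 was added after seeing the data. Motifs were searched and promoters aligned with Biopython 1.88. Arrays give no read depth, and their number limits the precision.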

Additional observations from a re-analysis of the deposited data

Results flagged for a closer look

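The second Csf1r probe set passed the test for a different change at birth in the 2 oxygen levels. Its change at 2 h was lower in 10% oxygen than in room air by a log2 difference of -4.60 (limma, adjusted p = 0.0448). The signal at 2 h was 10.2, 5.0 and 5.8 in 10% oxygen, against 117.1, 119.4 and 150.3 in room air. Of the 3 arrays of 10% oxygen, 2 lay under the floor. The call was lost without any 1 of the 12 arrays, and also with quantile normalization, no filter or the replicate block. The first Csf1r probe set gave -0.67.

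Lysozyme on the probe set shared by Lyz1 and Lyz2 passed the test for a different change at birth in lung and liver of room air. The lung change exceeded the liver change by 1.92 at 2 h and 2.14 at 6 h (limma, adjusted p = 0.0431 and 0.0446). Leaving out any 1 of 7 of the 12 arrays ended the 2 h call, and any 1 of 10 ended the 6 h call. Both calls were also lost with no filter. Lyz1 and Lyz2 cannot be told apart on this probe set, and the Lyz2 probe set gave 1.79 and 1.84 (adjusted p = 0.0519 and 0.0811).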

How the results depend on the processing

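Counts here are of macrophage probe sets past the threshold, with the reported count first. Leaving out 1 array at a time gave 3 to 4 in the fetal oxygen comparison (5), 3 to 4 at 2 h (3) and 3 to 4 at 6 h (4) after birth into 10% oxygen, 2 to 2 at 2 h (2) and 0 to 2 at 6 h (3) for 10% oxygen over room air, 0 to 1 at 2 h (1) and 0 to 0 at 6 h (0) for the interaction of oxygen, 0 to 0 at each age in room air (0), 0 to 1 at 2 h and 0 to 0 at 6 h in liver (0), 8 to 9 between F21 lung and liver (9), and 0 to 2 at each age for the interaction of organ (1). Against F21 lungs of room air, 0 passed at 2 h and 6 h in 10% oxygen, and the changes turned to -0.54 and -0.53 for Lyz2, -0.25 for the shared lysozyme probe set at 2 h and -0.027 for C1qc at 6 h, because the baseline was replaced.

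With the Gapdh ratio as a covariate the counts were 3 (fetal oxygen), 4 (2 h, 10% oxygen over room air), 1 and 1 (room air 2 h and 6 h), 1 and 1 (liver 2 h and 6 h), 5 (F21 lung over liver) and 0 (interaction of organ, 2 h). Without the arrays of a ratio over 3, a setting added after seeing the data that leaves 1 array in each group of 10% oxygen, the interaction of oxygen gave 0 at 2 h and 1 at 6 h. No filter gave 3 (fetal oxygen), 1 (room air 2 h) and 0 for the interactions of oxygen at 2 h and of organ at 2 h and 6 h. The top 30% filter gave 1 and 2 (room air 2 h and 6 h), 1 (2 h, 10% oxygen over room air), 0 (interaction of oxygen, 2 h) and 2 (interaction of organ, 2 h). Quantile normalization gave 2 (room air 2 h), 0 (interaction of oxygen, 2 h) and 2 (interaction of organ, 2 h), and a pseudocount of 16 gave 1 (room air 6 h) and 2 (interaction of organ, 2 h).

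Array weights gave 2, 3, 2 and 1 in room air, 2 (interaction of oxygen, 2 h), 1 (liver 2 h) and 2 (interaction of organ, 2 h). Fitting only the groups compared gave 1 and 2 (room air 2 h and 6 h), 2 (10% oxygen, 6 h), 3 (fetal oxygen), and 0 and 2 (interaction of organ, 2 h and 6 h). The methods' t-test on log2 signals at an unadjusted p under 0.01 gave 1 at each age in room air, 2 (10% oxygen, 6 h), 2 (fetal oxygen), 1 (6 h, 10% oxygen over room air) and 1 (liver 2 h). After Benjamini-Hochberg adjustment it gave 0 for both ages in 10% oxygen, for fetal oxygen and for 10% oxygen over room air at 6 h, and 1 at 2 h. On linear signals it gave 1, 2, 1 and 1 in room air, 1 (10% oxygen, 2 h), 1 (fetal oxygen), and 1 and 1 (10% oxygen over room air, 2 h and 6 h).

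Sample numbers are not pairs. With the replicate block the counts were 1 and 2 (room air 2 h and 6 h), 1 (liver 2 h), and 2 and 2 (interaction of organ, 2 h and 6 h), and it changed no other count by more than 1.5 times. The cause of these moves was not tested. Signals near the floor limit Adgre1, Mrc1, the second Cd68 and Lyz2 probe sets and the second Csf1r probe set, for which an absent difference and an unmeasured one cannot be told apart.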
